A study of Mus musculus with 12 samples.

Results

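The distal class I receptors are the odorant receptor (OR) genes from *Olfr651* to *Olfr692*, at the telomeric end of the class I gene cluster on mouse chromosome 7. A probe set was taken as a member when its first symbol in the platform annotation was Olfr with a number from 651 to 693, other than *Olfr653* and *Olfr657*, when that gene lay inside the cluster and when the symbol was not that of a pseudogene. This gave 33 probe sets of the 1213 OR probe sets and 35556 probe sets on the array, against 93 other probe sets of intact class I genes. Of the 33, 30 carried 1 symbol and 3 carried several, namely 1 of *Olfr681* and *Olfr679* and 2 of *Olfr688* and *Olfr689*. A probe set with several symbols is annotated to each of those genes, and their signals cannot be separated in it. RefSeq (GRCm38.p6) lists 42 OR genes of this number range in the cluster, 35 of them protein coding and 7 pseudogenes. The members read 32 of the 35 coding genes. *Olfr653* and *Olfr657* were left out by the rule and no member carried the symbol *Olfr687*.

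Total RNA of the main olfactory epithelium (MOE), the nasal tissue that holds the olfactory sensory neurons (OSNs), was hybridised to Mouse Gene 1.0 ST arrays (Affymetrix), 1 for each mouse, in 6 ΔJ and 6 wild-type littermate mice, labelled as strain C57BL/6. ΔJ mice are homozygous for a CRISPR-Cas9 deletion of the J element, an intergenic enhancer of class I genes near the centromeric end of the cluster. The ΔJ mice were 3 males and 3 females, 1 of them at postnatal day (P) 33 and the others at P30, and the wild-type mice 2 males and 4 females, 2 of them at P33 and the others at P30. All ΔJ mice came from 1 founder line, which was made in B6C3F1 zygotes (C3H/HeSlc and C57BL/6NCrSlc) and was in the second generation of backcrossing to C57BL/6NCrSlc. The deletion is constitutive, and no probe set was matched to the deleted element itself. Each level below is the deposited log2 signal minus the 75th percentile of its array, so a level of -1 lies 1 log2 unit under that percentile.

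Odorant receptors are G protein-coupled receptors on the cilia of OSNs, and each mature OSN expresses a single allele of a single OR gene out of a very large family. Class I receptors form the older, fish-like branch of the family, nearly all of it in 1 cluster in mice, and most OSNs that choose them lie in the dorsal zone of the MOE. Choice of an OR gene needs enhancers, which bring receptor promoters into an active state through homeodomain factors such as Lhx2 and the Ebf (O/E) factors. All members encode such receptors. RNA of the whole MOE was measured, so fewer OSNs expressing a gene and less mRNA per OSN cannot be told apart by the arrays. The study also counted OSNs by in situ hybridisation and reported fewer that express *Olfr692* in ΔJ mice.

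The members spanned 816 kb, from 104552884 to 105369317 on chromosome 7 (mm10), and their starts lay 2.05 to 2.86 Mb from the middle of the intergenic interval between *Olfr545* and the pseudogene *Olfr546-ps1*, which holds J. Gaps of 176 kb between *Olfr663* and *Olfr665* and of 83.8 kb between *Olfr686* and *Olfr688* divided them into 3 blocks. The first block ran from *Olfr651* to *Olfr663* (9 probe sets over 152 kb), the second from *Olfr665* to *Olfr686* (18 probe sets over 324 kb) and the last from *Olfr688* to *Olfr692* (6 probe sets over 81.2 kb).

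The sequences before 4 member genes are printed because they show what a near-identical pair shares and what a decreased gene and its neighbour hold. They are the 250 bases upstream of the gene start in RefSeq (GRCm38.p6), and capitals mark 4 homeodomain-type words, TAATTA as well as TAATTG, and also TAATGA together with TAATGG, on either strand. *Olfr679* and *Olfr681* share a probe set, and *Olfr692*, which was decreased, follows *Olfr691*, which did not pass the test. The sequences are from chr7:105085468-105085717 (plus strand), chr7:105121209-105121458 (plus strand), chr7:105337715-105337964 (minus strand) and chr7:105368078-105368327 (plus strand), in this order.
Olfr679: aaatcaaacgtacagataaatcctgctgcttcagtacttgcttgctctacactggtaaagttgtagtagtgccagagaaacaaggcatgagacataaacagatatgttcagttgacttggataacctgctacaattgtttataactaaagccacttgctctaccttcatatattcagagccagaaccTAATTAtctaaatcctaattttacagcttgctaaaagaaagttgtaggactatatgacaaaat
Olfr681: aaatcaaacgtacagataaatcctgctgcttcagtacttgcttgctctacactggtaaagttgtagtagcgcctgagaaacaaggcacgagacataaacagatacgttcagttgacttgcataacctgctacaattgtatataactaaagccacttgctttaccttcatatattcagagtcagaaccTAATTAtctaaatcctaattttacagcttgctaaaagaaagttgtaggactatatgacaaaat
Olfr691: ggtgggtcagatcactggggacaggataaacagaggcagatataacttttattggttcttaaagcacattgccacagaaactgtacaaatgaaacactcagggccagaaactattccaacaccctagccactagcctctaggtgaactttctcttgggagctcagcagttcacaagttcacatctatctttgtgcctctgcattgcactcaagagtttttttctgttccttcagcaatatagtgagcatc
Olfr692: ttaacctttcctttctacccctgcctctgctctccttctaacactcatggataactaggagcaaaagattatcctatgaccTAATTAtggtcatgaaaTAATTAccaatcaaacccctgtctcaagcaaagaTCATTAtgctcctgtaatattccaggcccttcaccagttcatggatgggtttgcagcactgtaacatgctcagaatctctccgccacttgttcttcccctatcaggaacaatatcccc
The windows of *Olfr679* and *Olfr681* were the same at 96.8% of 250 bases, and both held TAATTA with its first base 63 bases before the gene start. *Olfr692* held TAATTA starting 169 and 152 bases before the start and TAATGA on the other strand at 118, whereas the window of *Olfr691* held none of the 4 words. A window was available for 26 of the 32 member genes, and in 22 of these the gene start in the table was the start codon, so the windows need not hold the transcription start. At least 1 of the 4 words was present in 14 of the 26 windows (53.8%), in 60.9% of the 944 windows of OR genes and in 25.3% of all 32851 windows in the table. Among the 8 decreased genes with a window, *Olfr679*, *Olfr683* and *Olfr692* (3 genes) held a word, and 11 of the 18 others did. The O/E-like word CCCNNGGG and the word AAACTTTTC, searched on both strands with overlaps allowed, were in 0 of the 26 windows, in 3.07% and 0.318% of the OR windows and in 13.7% and 0.417% of all windows. The study writes its O/E-like site as YYYCARRRR, a different word that was not searched. The next most alike pairs of windows were those of *Olfr671* and *Olfr675* (90.8% identity) and of *Olfr661* and *Olfr663* (78.8%).

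Certain mice stood apart in the members and likewise in the class II OR probe sets. The following values come before the results because these mice enter every fold change. ΔJ replicate 5, a female at P30, was the lowest of its genotype in 18 of the 33 members, and 11 of them lay more than 0.4 below the genotype mean, against at most 2 in any other mouse. In the same mouse 39.4% of the 1072 class II OR probe sets lay more than 0.4 below the genotype mean, against 0.373% to 11.6% in the other mice. *Ncam2*, a cell adhesion molecule of ventral-zone OSNs, had a level of 0.90 in this mouse, 1.49 to 1.80 in its 5 ΔJ companions and 1.39 to 1.91 among the wild-type mice. *Nrp2*, the other ventral marker measured, was at 1.46 in it, within the 1.32 to 1.58 of the other ΔJ mice. *Nqo1*, an enzyme of dorsal-zone OSNs, had a level of 2.27 in it, 1.57 to 1.85 in the rest of its genotype and 1.58 to 1.82 among the wild-type mice. Of the other genes listed for the dorsal zone, *Acsm4* was also the highest of the ΔJ mice in it (3.74, against 3.61 to 3.71). *Plxna1* (1.64, against 1.80 to 1.98) and *Nrp1* (0.73, against 0.82 to 1.08), on the same list, were the lowest of the ΔJ mice. The genes listed for a zone thus did not all move the same way in this mouse. Whether every listed gene marks its zone was not tested, nor was their part in the levels of this mouse. Wild-type replicate 3, a male at P30, was the highest of its genotype in 25 of the 33 members, with a median deviation of 0.28 over the members and 0.24 over class II probe sets. The arrays also formed 2 sets. The SD of the log2 values of an array was 2.07 to 2.13 in replicates 1 to 3 of both genotypes and 2.20 to 2.23 in replicates 4 to 6. Each set held 3 mice of each genotype, and the labels do not say what the sets share. With genotype and array set as terms, 14998 of the 35556 probe sets differed between the sets (adjusted p under 0.05 from limma). All mice at P33 were in replicates 4 to 6. The median deviation over the members was 0.12, 0.02 and 0.28 in wild-type replicates 1 to 3. In wild-type replicates 4 to 6 it was -0.11, -0.16 and -0.15. In ΔJ replicates 1 to 3 it was 0.21, 0.11 and 0.06, and in ΔJ replicates 4 to 6 -0.12, -0.22 and 0.07. The deviation of a single mouse thus includes any difference between the array sets.

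**Figure D1:**
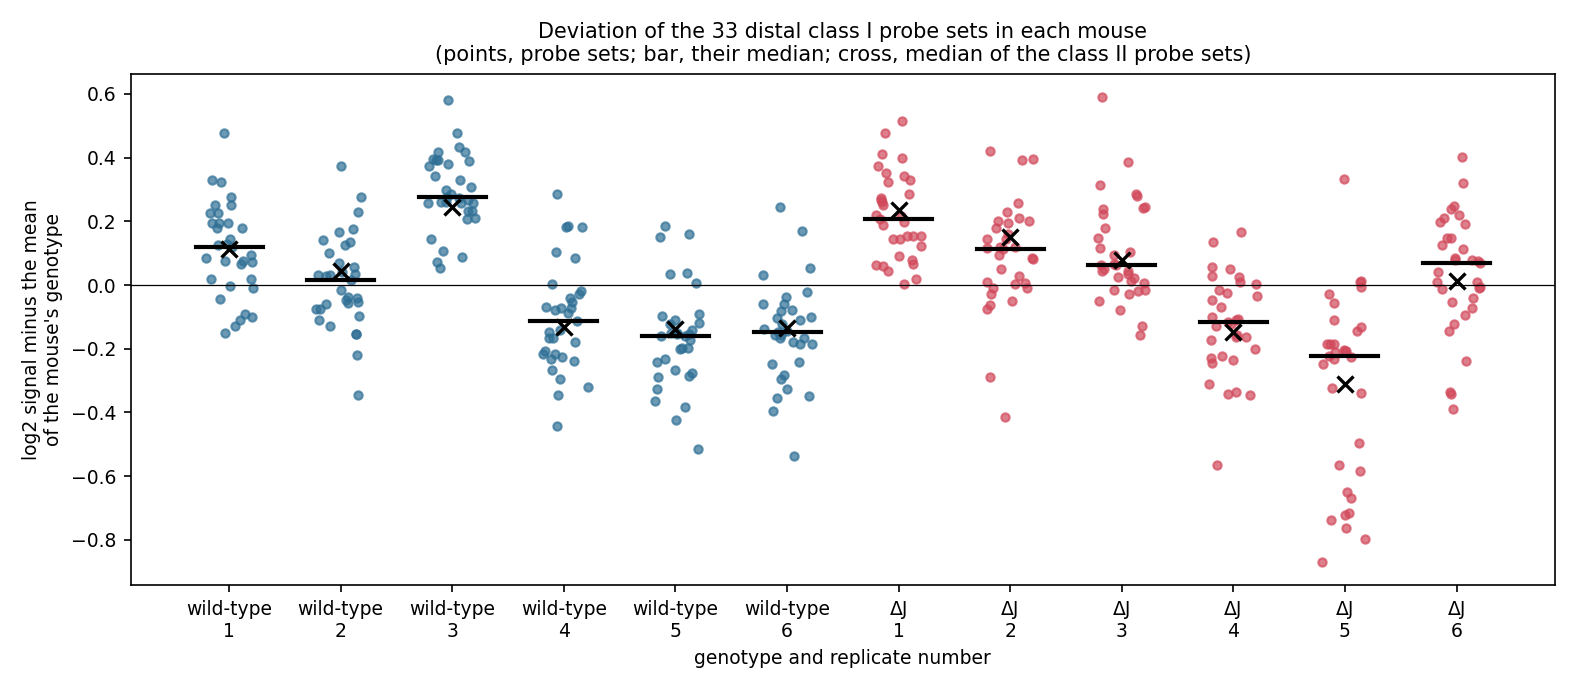
Deviation of each of the 33 distal class I probe sets from the mean of the mouse's genotype, in log2 units (vertical axis), for the 12 mice by genotype and replicate number (horizontal axis). Points are probe sets, bars their median and crosses the median of the class II probe sets; ΔJ replicate 5 has the lowest points and wild-type replicate 3 the highest median, 0.28.

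Of the 33 distal probe sets, 10 were decreased in ΔJ mice and 0 were increased. Decreased means lower by more than 1.3-fold with an adjusted p under 0.05 from limma over the 1213 OR probe sets, of which 6.18% were decreased and 0.0824% increased. The 10 were those of *Olfr665*, *Olfr676*, *Olfr677*, *Olfr678*, *Olfr679*, *Olfr683*, *Olfr684*, *Olfr685*, *Olfr690* and *Olfr692*, whose ΔJ signal was 57.6% to 74.2% of the wild-type signal (median 69.1%). A further 3 had a decrease beyond 1.3-fold that missed the threshold, and 20 stayed within 1.3-fold. With the replicate number as a block, or the array set as a term, 13 were decreased. The count of 10 became 8 without ΔJ replicate 5, 6 without wild-type replicate 3 and 6 without both, while *Olfr678*, *Olfr683*, *Olfr684*, *Olfr685* and *Olfr690* passed in every fit that left out 1 mouse. The fit over all 35556 probe sets, of which 0.129% were decreased, called 3 of the members, *Olfr678*, *Olfr685* and *Olfr690*.

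The median log2 fold change of the 33 was -0.27, against -0.63 over the other 93 class I probe sets, -0.04 over the class II probe sets and -0.05 over all OR probe sets. Of the other class I probe sets 62 were decreased (66.7%), and of the 1072 class II probe sets 0 were by limma, with 8 at an unadjusted p under 0.05. With the array set as a term 0 class II probe sets were decreased and 1 was increased. The difference between the distal and the other class I genes was not tested. In 29 of the 33 members the ΔJ mean was the lower one, and the same 29 of 33 were lower within both array sets, as were 42.8% of all OR probe sets. All 6 ΔJ mice lay below all 6 wild-type mice in 8 members, *Olfr677*, *Olfr678*, *Olfr679*, *Olfr683*, *Olfr684*, *Olfr685*, *Olfr690* and *Olfr692*, against 5.36% of the OR probe sets.

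**Figure D2:**
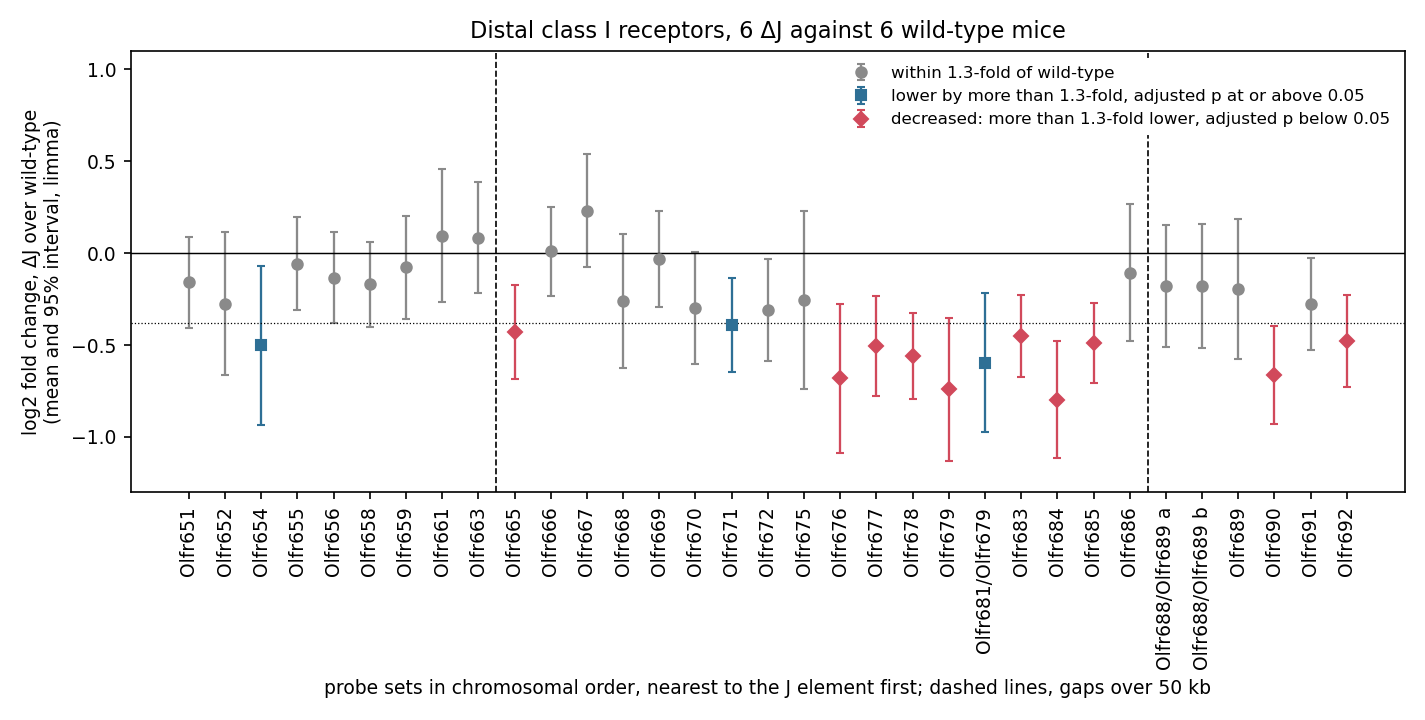
Log2 fold change of ΔJ over wild-type mice (vertical axis, with the 95% interval from limma, n = 6 mice of each genotype) of the 33 probe sets in chromosomal order (horizontal axis, nearest to J first; a and b mark the first and second probe set of *Olfr688* and *Olfr689*). None of the 9 probe sets of the first block was decreased in this fit with genotype alone, and the 8 from *Olfr676* to *Olfr685* all lay below the dotted line at 1.3-fold.

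In the fit with genotype alone the decreased genes lay in the last 2 blocks. In the first block 0 of 9 probe sets were decreased by limma, with 1 at an unadjusted p under 0.05, and the median log2 fold change was -0.13. *Olfr654*, in this block, passed once the replicate number was a block (adjusted p = 0.0172 from limma) or the array set a term (adjusted p = 0.019). In the second block 8 of 18 were decreased, with a median of -0.41, and in the last block 2 of 6, with a median of -0.24. Between *Olfr676* and *Olfr685*, a run picked out after the values were seen, 7 of 8 probe sets over 150 kb were decreased, and the eighth, shared by *Olfr681* and *Olfr679*, was lower by more than 1.3-fold. Of the 18 probe sets before *Olfr676* 1 was decreased, and of the 7 after *Olfr685* 2 were. No test of the difference between blocks was made. The genes left out by the rule lie in the first block, where *Olfr653* had a log2 fold change of 0.64 (SE 0.15, adjusted p = 0.0162 from limma) and *Olfr657* one of -1.75 (SE 0.19, adjusted p = 9.59e-06 from limma). Where RefSeq windows gave a strand, 5 of 17 probe sets on the plus strand and 3 of 10 on the minus strand were decreased.

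The lowest fold change among the members was that of *Olfr684*, on chromosome 7 from 105156742 to 105157680. Its level in wild-type mice ran from -3.04 to -2.41 with a median of -2.69, and in ΔJ mice from -3.91 to -3.09 with a median of -3.51. The groups did not overlap, and the highest ΔJ mouse lay 0.05 under the lowest wild-type mouse. *Olfr684* had a log2 fold change of -0.80 (SE 0.15, adjusted p = 0.00216 from limma), which left 57.6% of the wild-type signal (95% interval 46.1% to 71.9%). It was -0.69 in replicates 1 to 3 and -0.90 in replicates 4 to 6. The ΔJ mean of -3.50 lay within the range of the Y-linked gene *Kdm5d* in single females, -4.23 to -3.05, and all 6 ΔJ mice lay above the female ranges of both *Eif2s3y*, -5.30 to -4.73, and *Uty*, -5.09 to -4.07, which are Y-linked too. How much of the signal of single probe sets is background is not known.

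*Olfr679* (105085718 to 105086665) had the second lowest fold change. Its level was -1.18 to -0.51 in wild-type mice (median -0.93) and -2.44 to -1.25 in ΔJ mice (median -1.54). All ΔJ mice were below all wild-type mice, and the lowest value was that of ΔJ replicate 5, 0.95 below the mean of the other ΔJ mice. The log2 fold change was -0.74 (SE 0.18, adjusted p = 0.0193 from limma), and -0.58 (adjusted p = 0.0134) without that mouse. It no longer passed when wild-type replicate 1 (adjusted p = 0.0502 from limma) or wild-type replicate 3 (adjusted p = 0.0568) was left out.

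The probe set of *Olfr681* and *Olfr679*, placed at *Olfr681* (105121459 to 105122406), had a decrease beyond 1.3-fold that missed the threshold. Its level was 0.08 to 0.62 in wild-type mice (median 0.28) and -1.03 to 0.14 in ΔJ mice (median -0.12), with ΔJ replicate 5 lowest and the groups overlapping by 0.06. Its log2 fold change was -0.60 (SE 0.18) and did not pass (adjusted p = 0.0694 from limma). It passed with the replicate number as a block (adjusted p = 0.0032 from limma). Without ΔJ replicate 5 it was -0.44 (adjusted p = 0.0793 from limma).

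*Olfr676* (105031567 to 105036153) ranged from -2.27 to -1.37 in wild-type mice (median -1.75) and from -3.17 to -2.05 in ΔJ mice (median -2.29). The groups overlapped by 0.22, with wild-type replicate 5 among the ΔJ mice. The log2 fold change was -0.68 (SE 0.19, adjusted p = 0.0436 from limma), -0.62 in replicates 1 to 3 and -0.74 in replicates 4 to 6. Its call held in 4 of the 12 fits that left out 1 mouse, and without ΔJ replicate 5 the log2 fold change was -0.53 (adjusted p = 0.063 from limma).

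*Olfr677* and *Olfr678* are neighbours of *Olfr676* on its telomeric side. *Olfr677* (105056248 to 105057186) had levels of -1.53 to -1.21 in wild-type mice (median -1.44) and -2.39 to -1.64 in ΔJ mice (median -1.81), with no overlap and a log2 fold change of -0.51 (SE 0.13, adjusted p = 0.0225 from limma). It passed in 9 of the 12 fits that left out 1 mouse. *Olfr678* (105069469 to 105070410) had levels of -1.14 to -0.69 in wild-type mice (median -0.94) and -1.59 to -1.32 in ΔJ mice (median -1.51). These groups were 0.18 apart, and ΔJ replicate 5 was 0.13 below the mean of the others. The log2 fold change of *Olfr678* was -0.56 (SE 0.11, adjusted p = 0.00298 from limma), with -0.53 and -0.59 in the array sets.

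*Olfr683* and *Olfr685* stand on either side of *Olfr684*. The level of *Olfr683* (105143350 to 105144309) was -2.55 to -2.28 in wild-type mice (median -2.37) and -3.05 to -2.60 in ΔJ mice (median -2.85), with a log2 fold change of -0.45 (SE 0.10, adjusted p = 0.0115 from limma). That of *Olfr685* (105180361 to 105181311) was -0.90 to -0.62 in wild-type mice (median -0.81) and -1.48 to -1.07 in ΔJ mice (median -1.29), with a log2 fold change of -0.49 (SE 0.10, adjusted p = 0.00502 from limma). Neither gene had overlapping groups. The gap between the groups was 0.05 in *Olfr683* and 0.17 in *Olfr685*.

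In the last block *Olfr690* and *Olfr692* were decreased. *Olfr690* (105329217 to 105330278) had levels of -0.77 to -0.09 in wild-type mice (median -0.51) and -1.32 to -0.95 in ΔJ mice (median -1.13). The groups were 0.18 apart, and the log2 fold change was -0.66 (SE 0.12, adjusted p = 0.00209 from limma), with -0.77 and -0.56 in the array sets. *Olfr692* (105368328 to 105369317) is the last member, 2.86 Mb from the middle of the interval that holds J. Its level was -1.80 to -1.39 in wild-type mice (median -1.73) and -2.47 to -1.98 in ΔJ mice (median -2.09), again with no overlap. The log2 fold change was -0.48 (SE 0.12, adjusted p = 0.0186 from limma), -0.46 in replicates 1 to 3 and -0.50 in replicates 4 to 6. It passed in 11 of the 12 fits that left out 1 mouse but failed when wild-type replicate 4 was left out, at an adjusted p of 0.053 from limma. ΔJ replicate 5 was the lowest mouse of *Olfr692*, 0.41 below the mean of the other ΔJ mice, and without it the log2 fold change was -0.41 (adjusted p = 0.0287 from limma).

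*Olfr665* (104880709 to 104881659), the first gene of the second block, was the decreased gene nearest to J and had the smallest change of the 10. Its level was -1.22 to -0.53 in wild-type mice (median -0.91) and -1.49 to -1.21 in ΔJ mice (median -1.33). The highest ΔJ mouse and the lowest wild-type mouse overlapped by 0.02. For *Olfr665* the log2 fold change was -0.43 (SE 0.12, adjusted p = 0.0428 from limma), with -0.67 in replicates 1 to 3 and -0.19 in replicates 4 to 6, and the call held in 2 of the 12 fits that left out 1 mouse.

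**Figure D3:**
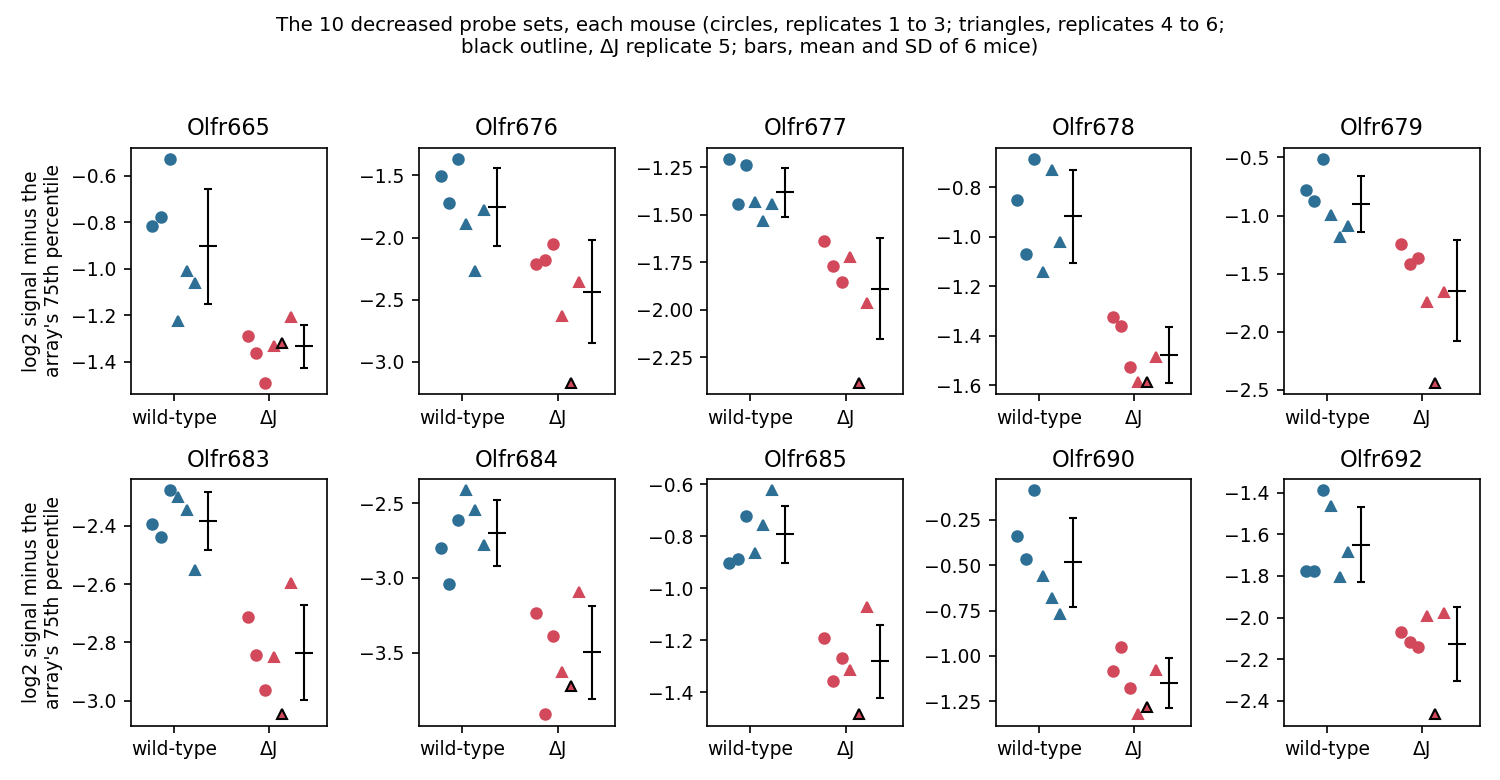
Level of the 10 decreased probe sets (log2 signal minus the 75th percentile of the array, vertical axis) in each wild-type (blue) and ΔJ (red) mouse, with the mean and SD of 6 mice in black. Vertical axes differ between panels; in all panels but those of *Olfr665* and *Olfr676* every ΔJ mouse lies below every wild-type mouse, and ΔJ replicate 5 (black outline) is lowest in *Olfr676*, *Olfr677*, *Olfr679* and *Olfr692* by the widest gaps.

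*Olfr654* and *Olfr671* also had decreases beyond 1.3-fold that missed the threshold. *Olfr654* (104587719 to 104588874), in the first block, had levels of -1.53 to -0.85 in wild-type mice (median -1.16) and -2.27 to -1.17 in ΔJ mice (median -1.56), with a log2 fold change of -0.50 (SE 0.20, adjusted p = 0.343 from limma). *Olfr671* (104972476 to 104975995) had levels of -2.51 to -2.11 in wild-type mice (median -2.17) and -2.89 to -2.43 in ΔJ mice (median -2.60), with a log2 fold change of -0.39 (SE 0.12, adjusted p = 0.0813 from limma). The groups of both genes overlapped. These genes and the probe set of *Olfr681* and *Olfr679* were the 3 members that passed in addition with the replicate block or the array set term, *Olfr671* with an adjusted p of 0.0245 in the limma fit with the replicate block.

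Of the 20 probe sets within 1.3-fold of wild-type, 16 had a lower ΔJ mean and 4 a higher one. *Olfr651* (104552884 to 104553952), the first member, had levels of -1.27 to -0.69 in wild-type mice (median -1.15) and -1.41 to -1.04 in ΔJ mice (median -1.28), and a log2 fold change of -0.16 (95% interval -0.41 to 0.09, adjusted p = 0.995 from limma). *Olfr658* (104642880 to 104647305) had levels of -2.40 to -1.93 in wild-type mice (median -2.22) and -2.55 to -2.18 in ΔJ mice (median -2.37), and a log2 fold change of -0.17 (95% interval -0.40 to 0.06, adjusted p = 0.995 from limma). The groups overlapped in both genes. Both intervals include a decrease of 1.3-fold.

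*Olfr672* and *Olfr686* also did not pass. *Olfr672* (104995964 to 104996902) had levels of -0.41 to 0.17 in wild-type mice (median -0.32) and -0.85 to -0.23 in ΔJ mice (median -0.61), and a log2 fold change of -0.31 (95% interval -0.58 to -0.03, adjusted p = 0.392 from limma). The wild-type maximum of 0.17 was wild-type replicate 3, and the ΔJ maximum was ΔJ replicate 5. *Olfr686* (105203388 to 105204341) had levels of -1.70 to -0.98 in wild-type mice (median -1.23) and -1.93 to -0.95 in ΔJ mice (median -1.27), and a log2 fold change of -0.11 (95% interval -0.48 to 0.27, adjusted p = 0.995 from limma). It lies between *Olfr685*, which was decreased, and the last block. The study describes *Olfr686* as an atypical class I gene, expressed in the ventral MOE. Without ΔJ replicate 5 its log2 fold change was 0.0068.

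The log2 fold changes of the other 16 ran from -0.30 (*Olfr670*) to 0.23 (*Olfr667*). *Olfr667* had levels of -1.07 to -0.48 in wild-type mice and -0.85 to -0.16 in ΔJ mice, and its value of 0.23 (95% interval -0.08 to 0.54, adjusted p = 0.995 from limma) was 0.25 in replicates 1 to 3 and 0.21 in replicates 4 to 6. *Olfr661* (0.09), *Olfr663* (0.08) and *Olfr666* (0.01) were the others with a higher ΔJ mean, and none of these 4 passed. *Olfr691*, between *Olfr690* and *Olfr692*, had levels of -1.19 to -0.70 in wild-type mice and -1.50 to -1.06 in ΔJ mice, with a log2 fold change of -0.28 (adjusted p = 0.4 from limma). The 3 probe sets of *Olfr688* and *Olfr689* had values of -0.18, -0.18 and -0.20, which became -0.05, -0.04 and -0.02 without ΔJ replicate 5. Their symbols overlap, and they are not taken as independent. *Olfr675*, whose upstream window resembles that of *Olfr671*, had a log2 fold change of -0.25 (95% interval -0.74 to 0.23), and the difference between these 2 genes was not tested.

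The interaction of genotype and array set passed in 0 of 33 members and in 0 of the 1213 OR probe sets by limma (smallest adjusted p of a member 0.991), with 2 members, *Olfr663* and *Olfr665*, at an unadjusted p under 0.05. *Olfr663* went from -0.11 in replicates 1 to 3 to 0.28 in replicates 4 to 6. The interaction of genotype and sex also passed in 0 members (smallest adjusted p 0.968 from limma), with 0 at an unadjusted p under 0.05. With 3 mice of each genotype, 9 members were decreased in replicates 1 to 3 alone and 1, *Olfr684*, in replicates 4 to 6 alone. Of the 93 other class I probe sets, 62 were decreased in replicates 1 to 3 alone and 48 in replicates 4 to 6 alone. Of the 1072 class II probe sets 0 were decreased in either set. The difference between these groups was not tested.

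**Figure D4:**
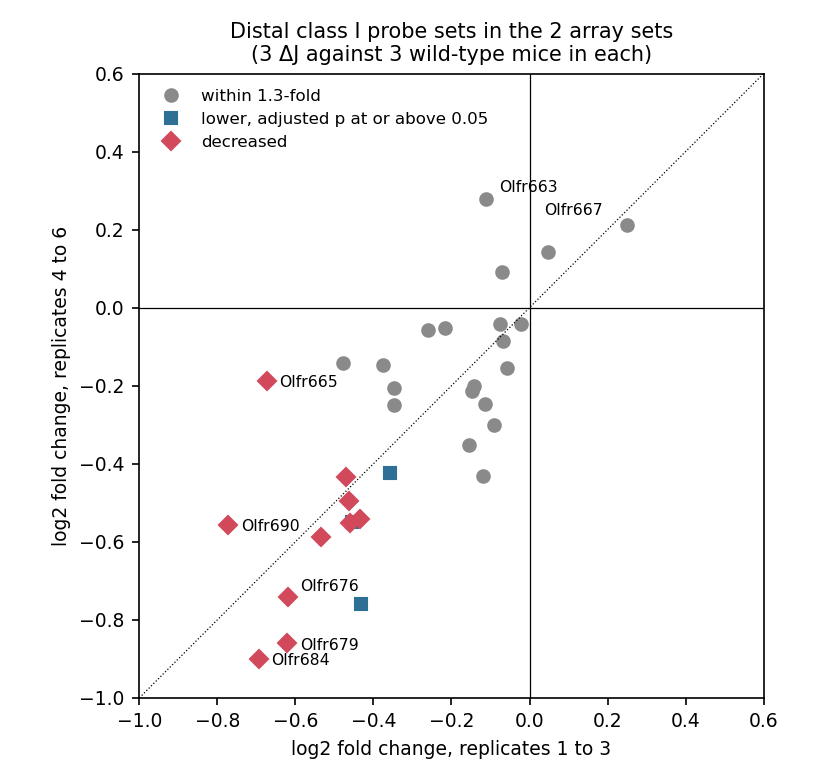
Log2 fold change of ΔJ over wild-type mice in replicates 4 to 6 (vertical axis) against replicates 1 to 3 (horizontal axis) for the 33 distal probe sets, with 3 mice of each genotype on each axis. All 10 decreased probe sets (diamonds) are negative on both axes, *Olfr665* lies farthest above the dotted line of equal values among them, and the mean over both sets chose which are decreased.

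Genes other than ORs in and beside the stretch were measured in the same mice. The 2 such genes read inside it, *Usp17lb* and *Usp17la*, which encode deubiquitinating enzymes, had log2 fold changes of -0.06 and -0.12. The wild-type mean of *Usp17lb*, -3.14, lay within the range of the Y-linked *Kdm5d* in females, -4.23 to -3.05. That of *Usp17la*, -4.38, lay within the female range of *Uty*, -5.09 to -4.07. Whether a decrease could be seen at such levels was not tested. Of the 17 probe sets of 16 genes within 1 Mb on the telomeric side, 0 were called by limma over all probe sets and 0 had an unadjusted p under 0.05, and their log2 fold changes ran from -0.17 (*Tpp1*) to 0.11 (*Apbb1*). *Cnga4*, a subunit of the cyclic nucleotide-gated channel of OSNs, starts 30.7 kb beyond *Olfr692* and was at 2.90 ± 0.11 (SD, n = 6) in ΔJ mice against 2.92 ± 0.05 (SD, n = 6) in the wild-type. *Fam160a2*, the next gene after *Olfr692*, had a log2 fold change of 0.02 (SE 0.09, adjusted p = 0.996 from limma).

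Markers of the cell types of the MOE were compared between genotypes over all probe sets. In 11 lists 0 probe sets were called by limma (smallest adjusted p 0.993), as were 0 of 20754 probe sets of single genes other than ORs, 424 of which had an unadjusted p under 0.05. The median log2 fold change was -0.02 for mature OSNs, 0.06 for immature OSNs, -0.02 for basal and progenitor cells, -0.01 for sustentacular cells, -0.03 for Bowman gland and respiratory cells, 0.04 for both the dorsal and the ventral zone, 0.09 for immune cells, -0.04 for blood and endothelium, -0.03 for vomeronasal neurons and -0.01 for receptor choice and fate, beside -0.03 over the 20754. The ventral median rested on 2 probe sets, that of blood and endothelium on 3 and the vomeronasal one on 4. *Vmn1r51*, on the vomeronasal list, was at -5.07 in wild-type mice, within the female range of the Y-linked *Eif2s3y*, -5.30 to -4.73. Medians of such short lists say little about a cell type. *Omp*, the defining marker of mature OSNs, was at 3.98 ± 0.02 (SD, n = 6) in ΔJ mice against 3.95 ± 0.07 (SD, n = 6) in the wild-type. *Lhx2* and *Ldb1*, a transcription factor and its cofactor at OR enhancers, differed by 0.0024 and -0.01 on the log2 scale, and *Tubb3*, a tubulin of young neurons, had one of 0.26 (adjusted p = 0.993 from limma).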

How the data were processed

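Biotin-labelled targets made from 12 MOE samples were hybridised to GeneChip Mouse Gene 1.0 ST arrays, 1 per mouse. The log2 signal of each of 35556 probe sets, as deposited, came per the labels from Affymetrix Expression Console. Its version is not stated, nor are the background correction and the summarization. The study's methods name a 75th percentile shift, which the deposited log2 values did not yet carry (75th percentiles of 8.38 to 8.56), and it was applied here. The 1213 OR probe sets of the study were analysed in R 4.3.3 by lmFit and eBayes of limma 3.58.1, genotype being the only term, with Benjamini-Hochberg adjustment. Genes other than ORs were fitted over every probe set. Names came from the platform annotation, and positions and upstream sequences from RefSeq (GRCm38.p6), in which all 33 members were found. Sequences were aligned with Biopython 1.88.

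The members, gene lists and tests were chosen with earlier results of these data known. All members could be named, with full statistics for decreased members, those lower by more than 1.3-fold, the first and last member, *Olfr658*, *Olfr672* and *Olfr686*. Of each gene list the first 2 genes could be named, and the run from *Olfr676* to *Olfr685*, *Olfr667*, *Olfr691*, *Tubb3* and the flanking genes were picked after their values were seen.

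Replicate numbers came from the labels. Same-numbered mice of the 2 genotypes deviated together (correlations of 0.185 to 0.441 over every probe set of the array). Within an array set the correlations were -0.144 to 0.078, so the numbers carry the array set. No pair of arrays held identical values. The steps were tested on simulated data for the 1213 OR probe sets. They called 9 of 50 changes of 1.3-fold, 30 of 50 of 1.5-fold and 47 of 50 of 2-fold. Of 1013 unchanged probe sets they called 0. A member that was not called is thus not shown to be unchanged. A call needs a measured change beyond 1.3-fold, which in itself limits the recovery of true changes of 1.3-fold. The noise was simulated for each probe set on its own, without the deviations that many probe sets of a mouse share. The 0 calls among unchanged probe sets need not hold for the real arrays. The precision is limited by the number of arrays. Alternatives covered the shift, the normalization, the probe sets fitted, the replicate block, the array set, sex, age, dim probe sets and each mouse left out, and 3 more were chosen after seeing the data.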

Additional observations from a re-analysis of the deposited data

Results flagged for a closer look

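In groups of 6 mice, a mouse was marked when its gap to the nearest other mouse, divided by the range of the group, was above Dixon's critical value for 6, which chance alone gives in about 1 in 20 groups. Of 66 groups, the 33 members in each genotype, 5 were marked. ΔJ replicate 5 was the lowest ΔJ mouse in 4 of them, at -2.45 and -2.39 in the first and second probe set of *Olfr688* and *Olfr689*, at -1.82 in *Olfr689* and at -2.47 in *Olfr692*. The symbols of the probe sets of *Olfr688* and *Olfr689* overlap, so that these 3 marks are not taken as independent. Wild-type replicate 3 was the highest wild-type mouse in *Olfr672*, at 0.17.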

How the results depend on the processing

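The count of 10 decreased members was 3 when every probe set of the array was fitted and adjusted over, 4 at a fold change beyond 1.5, 1 in replicates 4 to 6 alone and 6 without both ΔJ replicate 5 and wild-type replicate 3, a setting chosen after seeing the data. Leaving out 1 mouse at a time gave 6 to 10, with 6 without wild-type replicate 1 or wild-type replicate 3, in both of which *Olfr665*, *Olfr676*, *Olfr677* and *Olfr679* were lost. The replicate block, the array set term and a term for the ventral zone level each gave 13, and the block lost no call. The remaining settings gave 8 to 12. The causes were not tested. No setting called an increased member, and the median log2 fold change stayed within 0.22 of -0.27, the spread between ΔJ mice (-0.34 to -0.21 with 1 mouse left out, -0.17 without both mice). The sign of *Olfr686* turned without ΔJ replicate 5 (0.0068) and without both mice (0.062), and ran from -0.19 to 0.0068 with 1 mouse left out. No interaction passed in any setting run, and no flanking or listed gene was called in any of the 19 settings run over every probe set. The background of each probe set, which limits how large a decrease can be measured, was not determined. The identity of member proteins was not run.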
